A study of Mus musculus with 12 samples.

Results

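The unfolded protein response was followed through 10 of its sensors and effectors as mouse B cells were activated and became plasmablasts. The 10 genes were found in the deposited count table by their mouse Entrez identifiers, out of 27179 genes in that table, and they are referred to below as the members. Ern1 and Xbp1 form the IRE1 arm, Atf6, Atf6b, Mbtps1, Mbtps2 and Creb3l2 the ATF6 arm, and Eif2ak3, Ppp1r15a and Ddit3 the PERK arm. All 10 passed the filter on low counts, with between 27 and 124459 counts in any library.

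RNA-seq libraries came from splenic B cells of male C57BL/6 mice on a Pep3b background, aged 6 to 12 weeks, with 2 libraries at each of 6 stages. Naive B cells received no treatment and were sorted as TCRβ-negative cells carrying B220, IgM and high IgD. Activated cells were isolated by negative selection, labelled with the division dye CTV, cultured with lipopolysaccharide (LPS, 25 µg/ml), and sorted while still undivided and CD69-positive at 3, 10 and 33 h. Day 4 cells came from a separate long-term LPS culture at lower density, in which expanded B cells were taken as CD22+CD138- and plasmablasts as CD22-CD138+, so the step from 33 h to expanded B cells also spans a change of culture. Replicates are numbered 1 and 2 after the labels. The study describes them as biological replicates without saying whether they came from separate mice, and p-values measure the spread between these libraries only.

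When proteins enter the endoplasmic reticulum (ER) faster than they can be folded, 3 transmembrane sensors signal to the nucleus. IRE1, the product of Ern1, removes a short intron from Xbp1 mRNA so that an active transcription factor is made, ATF6 travels to the Golgi where site-1 and site-2 proteases release its active part, and PERK, the product of Eif2ak3, slows translation by phosphorylating eIF2 alpha. Plasma cells are known for their dependence on XBP1 and for the large ER that antibody secretion requires.

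The libraries held 23026619 to 60585587 counts (median 37839944). The labelled cell types were compared with markers first. The 6 plasma cell markers summed to 370 and 337 CPM (counts scaled to a common library total) for naive cells, 2850 and 2260 CPM at 3 h, where Irf4 alone held 2590 and 1950 CPM, and 870 and 875 CPM at 10 h. The sums were 430 and 600 CPM at 33 h, 1580 and 1840 CPM in expanded B cells, and 14200 and 13500 CPM in plasmablasts. Sdc1, which encodes the sorting marker CD138, stood at 106 and 105 CPM in plasmablasts and at 3.70 and 4.95 CPM in expanded B cells, while Cd22 stood at 1.36 and 1.14 CPM in plasmablasts and at 418 and 393 CPM in expanded B cells. Transcripts of both sorting markers therefore separated the day 4 populations without overlap. Because the cells were sorted on these proteins, this is no independent check of the labels. In naive cells Sdc1 stood at 23.1 and 20.4 CPM, above expanded B cells.

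Among markers of other cells, Hba-a1 and the sum of the myeloid list were highest in naive libraries. The 8 myeloid markers summed to 276 and 122 CPM there, led by Lyz2 at 131 and 54.9 CPM, and to 2.43 and 4.64 CPM at 3 h, where S100a8, S100a9, Mpo and Elane were at 0 counts in both libraries. They summed to 10.1 and 7.87 CPM at 10 h, 28.5 and 20.2 CPM at 33 h, 37.4 and 35.3 CPM for expanded B cells, then 0.217 and 0.405 CPM for plasmablasts. Itgam led the myeloid list at 33 h and in expanded B cells. In expanded B cells it stood at 24.3 and 21.8 CPM, against 8.74 and 5.08 CPM in naive cells. Adgre1 stood at 13.1 and 13.4 CPM against 10.7 and 10.6 CPM, so these genes did not follow the sum. Lyz2, S100a8, S100a9, Mpo and Elane were at 0 counts in both expanded libraries. Hba-a1, a marker of red cells, stood at 88.0 and 64.7 CPM in the naive libraries and at no more than 0.754 CPM in any later library. The 8 T and NK cell markers summed to 6.08 and 5.72 CPM for naive cells, between 0.530 and 1.91 CPM in the activated and expanded libraries, and 8.12 and 5.97 CPM in plasmablasts, where Trac led at 6.57 and 4.88 CPM and Cd3e, Cd8a, Ncr1 and Klrb1c were at 0 counts in both libraries. Cd3g stood at 1.02 and 0.683 CPM in plasmablasts, against 0.263 and 0.370 CPM in expanded B cells. Cd4 stood at 0.372 and 0.304 CPM against 0.143 and 0.0853 CPM, and Cd3d overlapped between these 2 stages. The part of these cells in the changes from the naive stage was not tested. In sorted populations measured in bulk, a smaller share of cells that express a gene and less of its RNA per cell cannot be told apart.

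Levels are given as RPKM, counts divided by gene length and by scaled library size, so that genes of different length can be compared. Changes count as differentially expressed (DE) when they exceed 1.5-fold by glmTreat of edgeR at a 5% false discovery rate (Benjamini-Hochberg, all 13195 tested genes). With 2 libraries against 2, exact permutation of labels reaches no p lower than 0.333, so smaller values rest on the spread that the model shares over genes and stages. A count of 3, the floor, equals 0.0495 to 0.130 CPM and covers counting error only.

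Xbp1 (Entrez 22433, GRCm38 chromosome 11 from 5520641 to 5525993) encodes the transcription factor of the IRE1 arm. The segment that IRE1 cuts out is shown because gene-level counts cannot separate its 2 forms. It was found in GENCODE transcript Xbp1-201 as the pair of CNGCAG sites (N is any base) whose removal of 26 bases lengthened the reading frame, from 267 codons before the stop to 371. Capitals mark the 26 bases, at 5524279 to 5524304 on the plus strand, and 12 bases on either side are in lower case.
Xbp1 intron: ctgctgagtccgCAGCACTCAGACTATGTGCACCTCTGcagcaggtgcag
The segment lies inside the annotated coding sequence, at bases 815 to 840 of the transcript. Reads of the spliced and unspliced forms enter the same count, so the values below are the sum of both and say nothing of IRE1 activity.

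The Xbp1 level was 66.7 and 70.1 RPKM for naive cells (replicates 1 and 2), 28.0 and 55.1 at 3 h, then 60.2 and 47.1 at 10 h. It was 106 and 164 RPKM at 33 h, 417 and 473 for expanded B cells, then 2176 and 2376 for plasmablasts. The 3 h replicates stood far apart and overlapped with those at 10 h, whereas from the naive stage upwards through 33 h, expanded B cells and plasmablasts no neighbouring stages overlapped. Among tested genes Xbp1 ranked 1075th by level in naive cells, 2307th at 3 h, 116th in expanded B cells and 28th in plasmablasts. It rose from 10 h to 33 h with a log2 fold change of 1.33 (SE 0.28, adjusted p = 0.031), to expanded B cells by 1.72 (SE 0.29, adjusted p = 0.0077) and to plasmablasts by 2.36 (SE 0.29, adjusted p = 2.7e-04). The change over the first 3 h was -0.71 (SE 0.28, adjusted p = 0.27), but -1.32 and DE once 3 h replicate 2 was left out (adjusted p = 0.020). The step from 10 h to 33 h was no longer DE without 10 h replicate 2 (1.17, adjusted p = 0.17) or 33 h replicate 2 (0.99, adjusted p = 0.25), and the step to expanded B cells was not DE without 33 h replicate 1 (1.44, adjusted p = 0.10) or expanded replicate 2 (1.62, adjusted p = 0.052).

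Ern1 (Entrez 78943, chromosome 11 from 106397620 to 106487796), the gene for the sensor itself, was measured at 2.54 and 2.21 RPKM for naive cells, 4.54 and 3.77 at 3 h, then 1.84 and 2.64 at 10 h. Its level was 1.30 and 1.61 RPKM at 33 h, 6.40 and 6.45 for expanded B cells, then 21.4 and 19.0 for plasmablasts. Plasmablasts were highest and expanded B cells next, with no overlap between these or with the stages below, and 33 h was lowest. The naive and 10 h libraries overlapped. Ern1 rose from 33 h to expanded B cells by 2.15 (SE 0.17, adjusted p = 1.1e-05) and on to plasmablasts by 1.65 (SE 0.16, adjusted p = 2.9e-05). Its fall from 3 h to 10 h, -0.89 (SE 0.17), was DE at an adjusted p of 0.046, but not without 3 h replicate 1 (-0.76, adjusted p = 0.20) or 10 h replicate 1 (-0.65, adjusted p = 0.39). That call was also lost with library size alone for scaling (-0.56, adjusted p = 0.56), a fit to the 4 libraries compared (adjusted p = 0.11) or all genes kept (0.064). At least 10 counts in every library (adjusted p = 0.056) or a block for replicate number (adjusted p = 0.052) ended it too. Over the first 3 h the Ern1 change was 0.80 (SE 0.17, adjusted p = 0.083), but 0.90 and DE once 3 h replicate 2 was left out (adjusted p = 0.048).

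**Figure D1:**
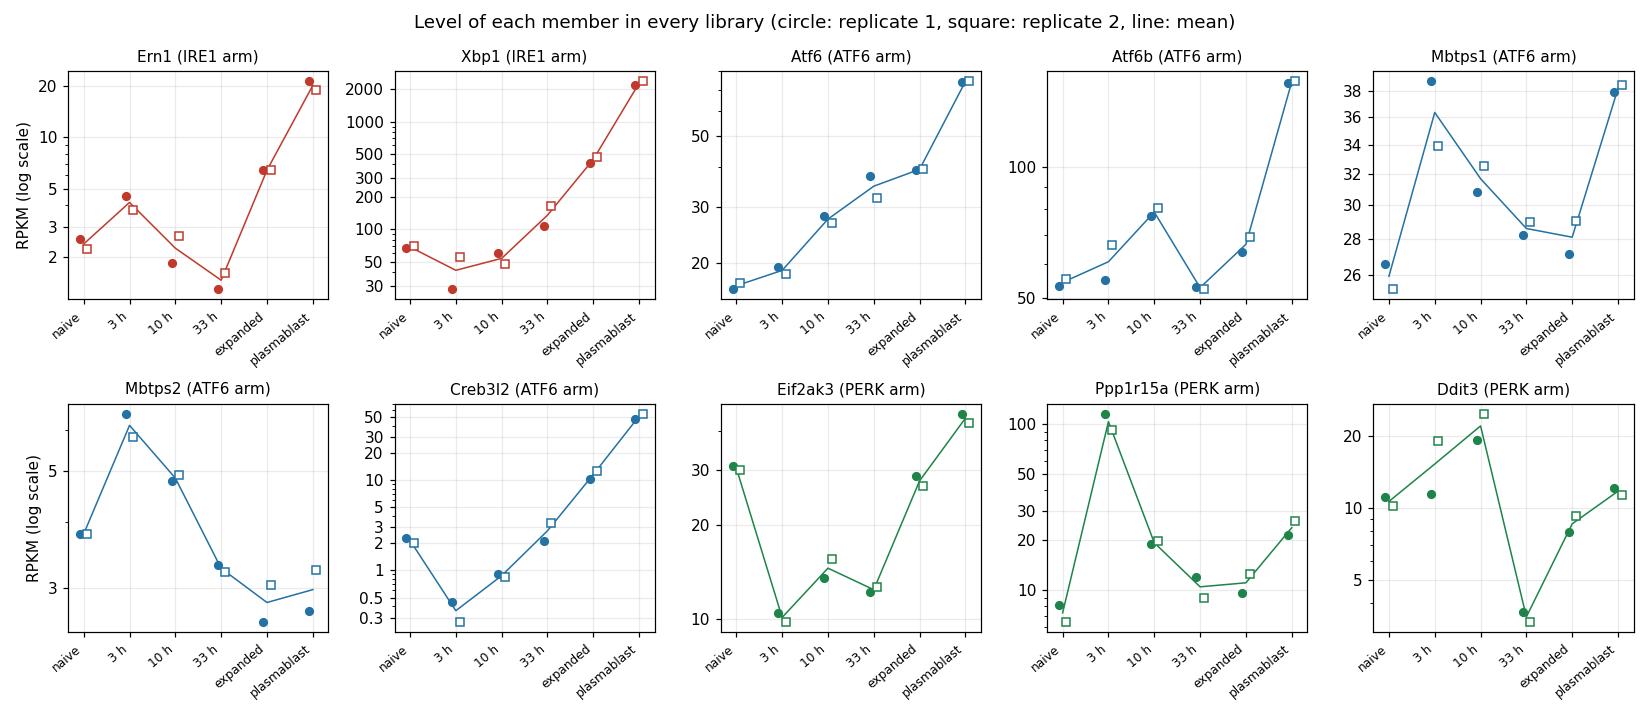
RPKM of the 10 members (vertical log axes, scaled to each gene) in every library at the 6 stages on the horizontal axis, with circles for replicate 1, squares for replicate 2 and lines through the stage means. Xbp1, Ern1 and Creb3l2 are highest in plasmablasts and lowest between 3 h and 33 h, while Ppp1r15a is highest at 3 h and Ddit3 at 10 h.

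Atf6 (Entrez 226641, chromosome 1 from 170704457 to 170868585), the sensor of the ATF6 arm, stood at 16.6 and 17.3 RPKM for naive cells, 19.4 and 18.5 at 3 h, then 28.2 and 26.8 at 10 h. It reached 37.6 and 32.1 RPKM at 33 h, 39.3 and 39.5 for expanded B cells, then 74.2 and 74.6 for plasmablasts. No neighbouring stages overlapped, and the stage means increased in the order of the stages. The only DE step was the last, 0.92 (SE 0.09, adjusted p = 0.0014). With library size alone for scaling that step was 0.59 and not DE (adjusted p = 0.49), and the step from 3 h to 10 h, 0.54 otherwise, was 0.87 and DE (adjusted p = 0.0026). The steps added up to a rise of 2.13 from naive cells to plasmablasts (SE 0.09, adjusted p = 1.2e-09).

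Atf6b (Entrez 12915, chromosome 17 from 34647146 to 34655074), a paralog of Atf6, was at 53.5 and 55.3 RPKM for naive cells, 55.2 and 66.2 at 3 h, then 77.1 and 80.6 at 10 h. Its level was 53.2 and 52.6 RPKM at 33 h, 64.0 and 69.1 for expanded B cells, then 156 and 157 for plasmablasts. Plasmablasts were clearly apart, 10 h came next, and the naive, 3 h and expanded libraries overlapped in part. The rise from expanded B cells to plasmablasts was 1.24 (SE 0.09, adjusted p = 1.1e-05).

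Creb3l2 (Entrez 208647, chromosome 6 from 37327255 to 37442276) encodes a transcription factor anchored in the ER membrane that is released by the same proteases as ATF6. Its level was 2.28 and 2.01 RPKM for naive cells, 0.443 and 0.271 at 3 h, from 27 and 28 counts, and 0.905 and 0.839 at 10 h. It was 2.12 and 3.35 RPKM at 33 h, 10.3 and 12.7 for expanded B cells, then 47.8 and 53.9 for plasmablasts. The stage means spanned 142-fold, more than for any other member, and apart from naive cells and 33 h no neighbours in the order of levels overlapped. Creb3l2 was DE at each of the 5 transitions. It changed by -2.66 over the first 3 h (SE 0.29, adjusted p = 1.5e-05), then by 1.36 (SE 0.31, adjusted p = 0.017), 1.63 (SE 0.22, adjusted p = 8.8e-04), 2.09 (SE 0.19, adjusted p = 4.7e-05) and 2.15 (SE 0.18, adjusted p = 6.3e-06). Between 3 h and 10 h the call was lost without 3 h replicate 2 (0.99, adjusted p = 0.26) or 10 h replicate 1 (1.31, adjusted p = 0.060).

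The proteases of the ATF6 arm varied least. Mbtps1 (Entrez 56453, chromosome 8 from 119508151 to 119558864), which encodes site-1 protease, had stage means between 25.9 RPKM in naive cells and 38.2 RPKM in plasmablasts, a span of 1.47-fold. Its replicates were at 26.6 and 25.3 RPKM for naive cells, 38.8 and 33.9 at 3 h, then 37.9 and 38.5 in plasmablasts, so that the 3 h and plasmablast libraries overlapped above the naive ones. Mbtps2 (Entrez 270669, X chromosome from 157547822 to 157598715), which encodes site-2 protease, was highest at 3 h, at 6.43 and 5.80 RPKM, against 3.80 and 3.81 RPKM in naive cells. It was lowest in expanded B cells at 2.59 and 3.05 RPKM, which overlapped with plasmablasts at 2.72 and 3.24 RPKM. Neither gene was DE at any of the 6 comparisons. Without the 1.5-fold threshold, the quasi-likelihood F-test gave both an adjusted p of 2.3e-04 over the first 3 h, for changes of 0.49 (SE 0.09) in Mbtps1 and 0.68 (SE 0.12) in Mbtps2. The span of the Mbtps2 gene contains Yy2, which overlaps it by 2867 bases. Whether their exons overlap was not examined. Reads in shared exon bases could not be told apart if the count took no account of strand.

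Eif2ak3 (Entrez 13666, chromosome 6 from 70844484 to 70905241), the gene for PERK, was at 30.7 and 30 RPKM for naive cells, 10.4 and 9.79 at 3 h, then 13.5 and 15.6 at 10 h. It was at 12.2 and 12.6 RPKM at 33 h, 28.7 and 26.6 for expanded B cells, then 45.3 and 42.4 for plasmablasts. All of the activated libraries lay below all of the naive, expanded and plasmablast libraries, and no neighbours in the order of levels overlapped. Eif2ak3 fell by 1.59 over the first 3 h (SE 0.10, adjusted p = 1.7e-07) and rose by 1.16 from 33 h to expanded B cells (SE 0.09, adjusted p = 1.1e-04). The next step, 0.67 (SE 0.09, adjusted p = 0.21), was not DE, and neither was the difference between naive cells and plasmablasts, 0.53 (SE 0.09, adjusted p = 0.66), though both passed the F-test (adjusted p = 3.8e-05 and 1.4e-04). In a fit to the 4 libraries compared, the step from expanded B cells to plasmablasts was 0.69 and DE (adjusted p = 0.039). With library size alone, the step from 3 h to 10 h, 0.52 otherwise, was 0.86 and DE (adjusted p = 0.0050).

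Ppp1r15a (Entrez 17872, chromosome 7 from 45522917 to 45526268) encodes GADD34, the phosphatase subunit that reverses eIF2 alpha phosphorylation. Its level was 8.12 and 6.47 RPKM for naive cells, 115 and 91.6 at 3 h, then 18.9 and 19.6 at 10 h. It was 12.0 and 8.92 RPKM at 33 h, 9.63 and 12.5 for expanded B cells, then 21.5 and 26 for plasmablasts. The 3 h libraries stood far above all others, plasmablasts came next, and 33 h and expanded B cells overlapped. The rise over the first 3 h was 3.82 (SE 0.20, adjusted p = 1.3e-08), 214th from the top of all tested genes, and the fall to 10 h was -2.42 (SE 0.18, adjusted p = 1.8e-06). A second rise, from expanded B cells to plasmablasts, was 1.10 (SE 0.18, adjusted p = 0.0077). That rise was not DE without expanded replicate 1 (0.93, adjusted p = 0.084) or plasmablast replicate 2 (0.99, adjusted p = 0.057), nor with library size alone (0.77, adjusted p = 0.13). From 10 h to 33 h the change was -0.88 (SE 0.18, adjusted p = 0.10), but -1.11 and DE once 33 h replicate 1 was left out (adjusted p = 0.028) and -0.84 and DE with no filter on low counts (adjusted p = 0.034). The spans of Tulp2 and Ppp1r15a overlap by 730 bases.

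Ddit3 (Entrez 13198, chromosome 10 from 127290793 to 127296291) encodes CHOP, a transcription factor linked to cell death under prolonged ER stress. It was measured at 11.1 and 10.2 RPKM for naive cells, 11.5 and 19.0 at 3 h, then 19.3 and 24.7 at 10 h. Its level was 3.65 and 3.35 RPKM at 33 h, 7.92 and 9.23 for expanded B cells, then 12.1 and 11.3 for plasmablasts. The level was highest at 10 h and lowest at 33 h, and plasmablasts lay just above naive cells without overlap. The fall from 10 h to 33 h, -2.64 (SE 0.22, adjusted p = 3.2e-06), was the 113th largest of all tested genes. The rise to expanded B cells was 1.284 (SE 0.22, adjusted p = 0.011), and it was not DE without 33 h replicate 1 (1.35, adjusted p = 0.061), 33 h replicate 2 (1.22, adjusted p = 0.058) or expanded replicate 2 (1.17, adjusted p = 0.087). Between 3 h and 10 h the change was 0.51 (SE 0.20, adjusted p = 0.67), but 0.95 and DE once 3 h replicate 2 was left out (adjusted p = 0.033). Between naive cells and plasmablasts it was 0.14 (SE 0.21, adjusted p = 1), and -0.14 with library size alone. The spans of Mbd6 and Mars1 overlap the ends of Ddit3 by 77 and 71 bases.

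Over the first 3 h, 3 of the 10 members were DE (45.0% of all tested genes were), with Ppp1r15a up (20.9% of tested genes) and Creb3l2 and Eif2ak3 down (24.2%). From 3 h to 10 h, 3 members were DE (30.5% of tested genes), with Creb3l2 up (17.2%) and Ern1 and Ppp1r15a down (13.3%). From 10 h to 33 h, 3 members were DE (14.4% of tested genes), with Xbp1 and Creb3l2 up (10.0%) and Ddit3 down (4.41%). At the first 2 of these transitions the members' share by glmTreat did not exceed that of all genes. By the F-test, which has no 1.5-fold threshold, 5 members were up and 3 down at each of these 2. It called 4556 and 4222 of 13195 tested genes up and 4778 and 3964 down. The members' share was then the higher for rises but not for falls, and a difference from all genes was not tested.

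From 33 h to expanded B cells 5 members were DE (10.4% of tested genes), all upwards (6.87% of tested genes) and none downwards (3.56%), namely Ern1, Xbp1, Creb3l2, Eif2ak3 and Ddit3. From expanded B cells to plasmablasts 6 were DE (26.1% of tested genes), all upwards (14.0%) and none downwards (12.1%), namely Ern1, Xbp1, Atf6, Atf6b, Creb3l2 and Ppp1r15a. These 6 were also DE between naive cells and plasmablasts (49.8% of tested genes), again all upwards (26.5%, with 23.3% downwards). That comparison gave the IRE1 arm 2 of 2 members up with changes of 3.08 for Ern1 and 5.06 for Xbp1, the ATF6 arm 3 of 5 with 4.56 for Creb3l2 as the largest, and the PERK arm 1 of 3 with 1.70 for Ppp1r15a. The median log2 fold change was 4.07 over the IRE1 arm, 1.53 over the ATF6 arm and 0.53 over the PERK arm, against 0.02 over all tested genes. A difference between arms was not tested.

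**Figure D2:**
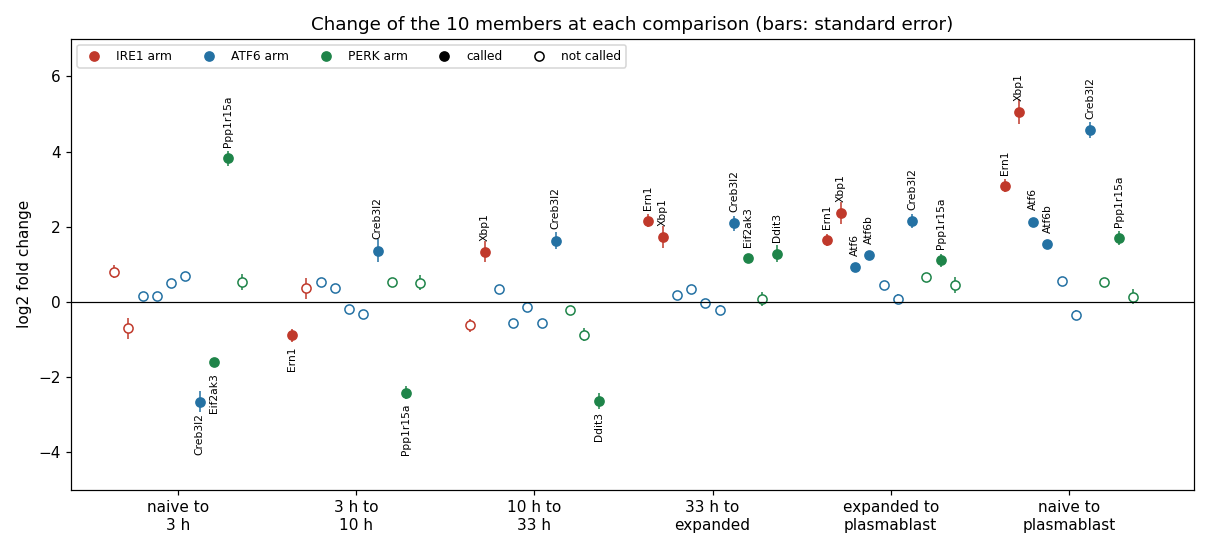
Log2 fold change (vertical axis) of each member at the 6 comparisons (horizontal axis), with bars for the standard error, colours for the arms, and filled points with names for changes called DE. Xbp1 and Ern1 are both called upwards in the comparisons that end in expanded B cells or plasmablasts, and the largest early change is that of Ppp1r15a at 3.82.

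Ratios between members within a library do not depend on how libraries are scaled. Xbp1 was 26.3 and 31.8 times the Ern1 level per length in naive cells, 6.17 and 14.6 times at 3 h, and 32.7 and 17.8 times at 10 h. At 33 h it was 82.0 and 102 times, in expanded B cells 65.1 and 73.5 times, and in plasmablasts 102 and 125 times. The ratio was thus higher in all libraries from 33 h onwards than in any earlier one, and lowest at 3 h. Eif2ak3 was 12.1 and 13.6 times the Ern1 level in naive cells but 2.29 and 2.59 times at 3 h. After 7.31 and 5.89 times at 10 h and 9.39 and 7.82 times at 33 h, it was 4.48 and 4.12 times for expanded B cells, then 2.12 and 2.23 times for plasmablasts. The transcripts of these sensors were therefore closest to each other at 3 h and in plasmablasts, and farthest apart in naive cells.

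Within the ATF6 arm, the ratio of Atf6 to Atf6b was 0.310 and 0.313 for naive cells, 0.707 and 0.610 at 33 h, and 0.475 and 0.474 in plasmablasts. Atf6b was the more abundant paralog per length in every library. Mbtps1 exceeded Mbtps2 by 6.03 and 5.85 times at 3 h and by 14.0 and 11.9 times in plasmablasts, without overlap. Within the PERK arm, Ppp1r15a stood at 0.734 and 0.634 times Ddit3 in naive cells, at 10.0 and 4.81 times at 3 h, and at 0.980 and 0.795 times at 10 h. By stage means, the Ppp1r15a peak at 3 h preceded the Ddit3 peak at 10 h. The Ddit3 step between these stages, 0.51, was not DE by glmTreat (adjusted p = 0.67). Ddit3 relative to Xbp1 was 0.320 and 0.525 at 10 h and 0.00558 and 0.00477 in plasmablasts, its highest and lowest stages by mean.

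**Figure D3:**
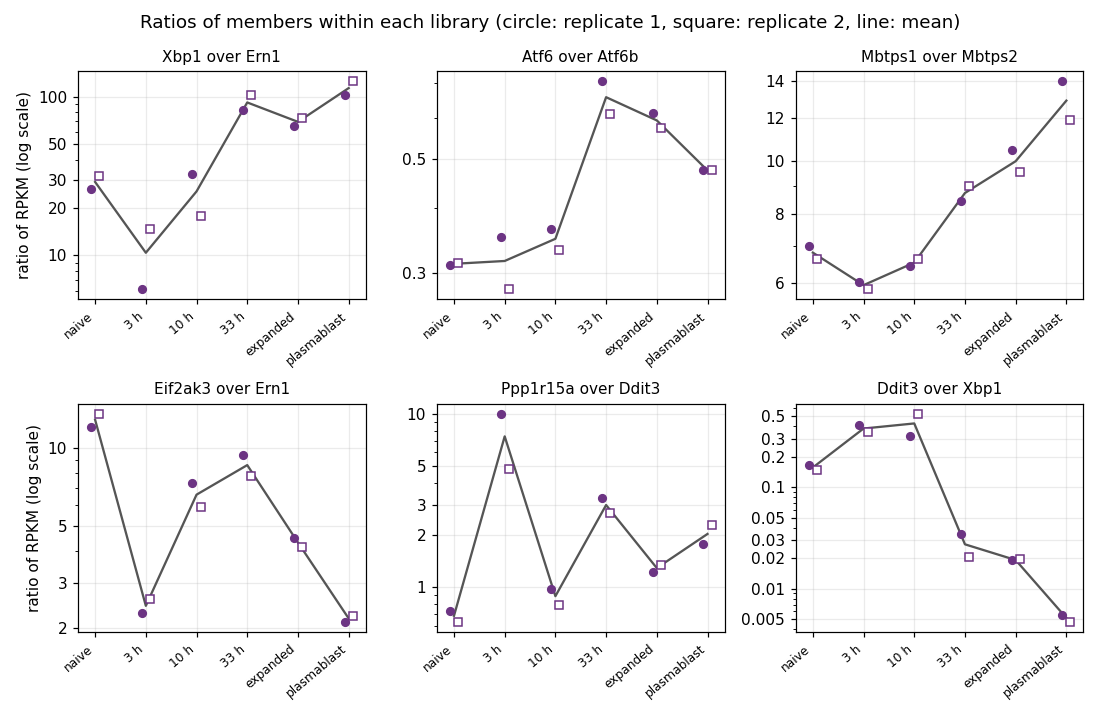
Ratio of RPKM between 2 members within each library (vertical log axes) at the 6 stages (horizontal axis), with circles for replicate 1, squares for replicate 2 and lines through the means. The ratio of Ddit3 to Xbp1 drops from 0.423 at 10 h to 0.00517 in plasmablasts on average, and that of Eif2ak3 to Ern1 is lowest in plasmablasts at 2.18 and at 3 h at 2.44.

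Of the summed RPKM of the 10 members, Xbp1 made up 30.1% and 31.5% for naive cells, 9.66% and 18.1% at 3 h, then 83.9% and 84.8% in plasmablasts. Xbp1 and Creb3l2 were alike in course, with a root mean square difference of 0.66 between their centred log2 CPM over 12 libraries, while their own variation about the mean was 2.06 and 2.35. Mbtps1 and Mbtps2 were the closest pair of members, at 0.39, but their stage means also had the smallest spans, 1.47-fold and 2.17-fold. From naive cells to plasmablasts they changed by 0.56 and -0.35, neither DE. Ppp1r15a and Creb3l2 were the farthest apart, at 3.06.

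Among 8835 other tested genes (mean log2 CPM 3 or more), those nearest in course to Xbp1 were Oosp1 (0.40), Sec11c (0.43) and Kcnn4 (0.48), each with its root mean square difference in log2 CPM over the 12 libraries. Nearest to Ern1 were Vsir (0.32), Edem3 (0.33) and Atp6v0a1 (0.40), and nearest to Creb3l2 were Pqlc3 (0.30), Endou (0.41) and Rapgef3 (0.45). Those nearest to Atf6 were Mettl9 (0.13), Tssc4 (0.14) and Prkcsh (0.15). In the PERK arm, the nearest genes were Rpgrip1 (0.17), Ptprcap (0.19) and Mgat4a (0.20) to Eif2ak3, Tmem120b (0.30), Jun (0.31) and Skil (0.45) to Ppp1r15a, and Lpin1 (0.38), Tmem163 (0.42) and Ddx17 (0.46) to Ddit3. Each of these 7 members had stage means that spanned at least 4-fold.

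The genes that the arms act on were followed through lists of their known targets. Of 30 XBP1 target genes, which serve translocation into the ER, folding, degradation and vesicle transport, 7 were DE upwards and 3 downwards over the first 3 h, or 23.3% and 10.0%, against 20.9% and 24.2% of all tested genes. Dnajb9 (1.42), Srpr (1.05) and Sec61a1 (1.02) rose most, while Sec24d (-2.00), Syvn1 (-0.74) and Txndc11 (-0.74) fell. The calls of these 3 falls were each lost on leaving out some libraries, with adjusted p-values of 0.053 for Sec24d without 3 h replicate 2, and of up to 0.12 for Syvn1 without naive replicate 1 and for Txndc11 without naive replicate 2. Syvn1 was also lost without naive replicate 2 (adjusted p = 0.076) or 3 h replicate 2 (0.087), and Txndc11 without any other of the 4 libraries (0.062 to 0.073) or in a fit to those 4 alone (0.053). From 3 h to 10 h only Lman1 (0.90) rose and Sec63 (-0.84) fell, or 3.33% each way against 17.2% of all tested genes up and 13.3% down, with a list median of 0.06 (0.39 with library size alone). The call of Lman1 was lost without 3 h replicate 1 (0.79, adjusted p = 0.055), and that of Sec63 without 3 h replicate 1 (-0.62, adjusted p = 0.40) or 10 h replicate 1 (-0.76, adjusted p = 0.15), with library size alone (-0.50, adjusted p = 0.85) or in a fit to those 4 libraries (0.083).

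From 10 h to 33 h, 5 of the 30 rose (16.7%, against 10.0% of all tested genes) and 0 fell (4.41% of all tested genes) by glmTreat, led by Sec24d (2.26), Txndc5 (1.07) and Pdia6 (1.01), the last of which was not DE without 33 h replicate 2 (0.79, adjusted p = 0.061). From 33 h to expanded B cells 14 rose, or 46.7% against 6.87% of all tested genes, led by Sec24d (2.69), Txndc11 (1.49) and Txndc5 (1.31), with a list median of 0.85 against -0.02 over all tested genes. From expanded B cells to plasmablasts 27 of 30 rose, or 90.0% against 14.0% of all tested genes, led by Txndc5 (3.43), Edem2 (2.98) and Edem1 (2.68), with a list median of 1.71 against -0.04 over all tested genes. All 30 rose between naive cells and plasmablasts, where 26.5% of all tested genes did, with a median of 3.28, and Sec24d (5.99), Edem1 (4.98) and Sec61g (4.63) rose most. Sec61g rested on 25 and 5 counts in naive cells, and its change ranged from 4.06 to 5.96 under the alternatives. Txndc5, an ER disulfide isomerase, stood at 107 and 109 RPKM in naive cells and at 2660 and 2610 RPKM in plasmablasts.

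Of the 7 tested partners of IRE1, a list that holds the tRNA ligase Rtcb, kinases downstream of IRE1 and transcripts that it cleaves, Bloc1s1 fell over the first 3 h (-1.10, adjusted p = 0.0049), or 14.3% of the list against 24.2% of all tested genes. That call was lost without 3 h replicate 1 (-0.80, adjusted p = 0.053). At the other 5 comparisons glmTreat called 0 of the 7, against 10.4% to 49.8% of all tested genes.

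ATF6 target genes hold the main chaperones of the ER. Hspa5, which encodes BiP, stood at 239 and 250 RPKM for naive cells, 633 and 682 at 3 h, then 423 and 369 at 10 h. It was at 503 and 652 RPKM at 33 h, 777 and 816 for expanded B cells, then 2291 and 2249 for plasmablasts. The 3 h libraries of Hspa5 lay above those at 10 h without overlap, but the change between them, -0.73, was not DE (adjusted p = 0.095). With library size alone it was -0.40 (adjusted p = 1), with DESeq2 size factors -0.81 and DE (adjusted p = 0.034), and by the F-test, which has no 1.5-fold threshold, DE at an adjusted p of 7.8e-05. Hsp90b1, which encodes GRP94, was measured at 153 and 152 RPKM for naive cells, 179 and 170 at 3 h, then 201 and 184 at 10 h. It was at 381 and 590 RPKM at 33 h, 995 and 1093 for expanded B cells, then 4148 and 4382 for plasmablasts. Its levels per length in plasmablasts were above those of Xbp1. Dnajb9, an ER co-chaperone from the XBP1 list, was at 12.7 and 13.4 RPKM for naive cells, then 32.8 and 37.0 at 3 h, 15.1 and 16.7 at 33 h, and 128 and 121 in plasmablasts.

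Of the 12 ATF6 target genes, 3 were DE upwards and 3 downwards over the first 3 h, or 25.0% each way, close to the 20.9% and 24.2% of all tested genes. Canx (1.62), Hspa5 (1.43) and Hyou1 (1.15) rose, and Derl3 (-1.60), Pdia4 (-1.46) and Sdf2l1 (-1.43) fell, with a list median of 0.35 (0.14 with library size alone). From 3 h to 10 h Sdf2l1 (2.50) and Pdia4 (1.21) rose and Herpud1 (-1.27) fell, or 16.7% and 8.33% against 17.2% and 13.3% of all tested genes. From 10 h to 33 h 6 of 12 rose, or 50.0% against 10.0% of all tested genes, led by Derl3 (2.98), Sdf2l1 (1.48) and Creld2 (1.36), with a median of 0.69 against -0.02 over all tested genes. From 33 h to expanded B cells 5 rose, or 41.7% against 6.87% of all tested genes, led by Derl3 (1.48), Hsp90b1 (1.11) and Pdia4 (1.11). Without expanded replicate 2 the calls of Hsp90b1 (1.03, adjusted p = 0.062) and Pdia4 (adjusted p = 0.056) were lost, and that of Pdia4 also without 33 h replicate 1 (0.94, adjusted p = 0.070). From expanded B cells to plasmablasts 11 of 12 rose, or 91.7% against 14.0% of all tested genes, led by Derl3 (2.62), Creld2 (2.26) and Hsp90b1 (2.03), with a median of 1.90. All 12 rose from naive cells to plasmablasts, against 26.5% of all tested genes, with a median of 3.43 and with Derl3 (5.98), Sdf2l1 (5.46) and Creld2 (5.11) in front.

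Promoters of the members and of these lists were searched on both strands for 4 motifs, from 250 bases before to 50 after the start of each gene. The motifs were the ER stress element, read as CCAAT, 9 bases of any kind and CCACG, and the ER stress element II, ATTGG, any base and CCACG. The others were the core of the UPR element, TGACGTGG, and the C/EBP-ATF composite element, TGATG, any base and AAT. Among 32851 promoter windows from RefSeq (GRCm38.p6), 0.119% held the first, 0.0365% the second, 0.676% the third and 0.965% the fourth. Of the 9 members with a promoter in the table, 0 held any of the 4, which says only that these letters are not in these windows. The ER stress element was found in 6 of 10 promoters of ATF6 target genes, in 3 of 23 of XBP1 target genes, in 0 of 16 of PERK and ATF4 target genes, and in 1 of 5 of CHOP-linked genes. The element II was found in Dnajb11 (XBP1 targets), after the start, and in Herpud1, which is in both the ATF6 and the PERK and ATF4 lists. The UPR element core was found in Txndc5, Txndc11 and Sec24d of the XBP1 targets and in the IRE1 partner Mapk8, and the composite element in Nupr1 of the PERK and ATF4 targets. The promoter of Hspa5 at chr2:34771840-34772139 on the plus strand is shown because its transcript rose both at 3 h and in plasmablasts, with the element in capitals.
Hspa5 promoter: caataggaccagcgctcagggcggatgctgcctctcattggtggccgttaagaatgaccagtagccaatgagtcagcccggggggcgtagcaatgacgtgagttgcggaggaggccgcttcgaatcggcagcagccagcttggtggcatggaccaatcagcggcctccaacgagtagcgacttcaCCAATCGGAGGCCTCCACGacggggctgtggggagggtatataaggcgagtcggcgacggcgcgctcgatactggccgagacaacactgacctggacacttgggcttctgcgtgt
All other matches of the element in these lists are given for comparison, with the fixed letters in capitals and the free bases in lower case.
Dnajc3, chr14:118937827-118937845, plus strand: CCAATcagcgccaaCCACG
Pdia6, chr12:17266491-17266509, plus strand: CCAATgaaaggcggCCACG
Syvn1, chr19:6046532-6046550, plus strand: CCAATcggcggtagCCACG
Hsp90b1, chr10:86705638-86705656, minus strand: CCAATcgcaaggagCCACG
Hsp90b1, chr10:86705533-86705551, plus strand: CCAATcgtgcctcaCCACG
Calr, chr8:84847075-84847093, plus strand: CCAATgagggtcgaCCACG
Canx, chr11:50325800-50325818, minus strand: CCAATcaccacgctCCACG
Creld2, chr15:88819520-88819538, minus strand: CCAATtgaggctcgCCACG
Derl3, chr10:75893242-75893260, minus strand: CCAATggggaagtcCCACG
Ero1b, chr13:12565682-12565700, minus strand: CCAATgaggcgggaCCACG
A match is a description of the sequence and not a site of binding. Canx and Hspa5 rose over the first 3 h whereas Derl3 fell, so promoters that share the element did not share an early course.

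Of the CREB3 family and other substrates of site-1 protease, 6 genes were tested. Srebf2 (1.08) rose over the first 3 h, and Creb3l1 (-2.17) and Gnptab (-1.51) fell, or 16.7% and 33.3% against 20.9% and 24.2% of all tested genes. Creb3l1, a paralog of Creb3l2, was nearly silent at 3 h with 2 and 4 counts, and the call was lost on leaving out any 1 of the 4 libraries (adjusted p = 0.072 to 0.099). It rose from 33 h to expanded B cells (2.12), or 16.7% of the list against 6.87% of all tested genes, and on to plasmablasts (2.28), reaching 3.58 and 4.22 RPKM. The first of these calls was lost without expanded replicate 1 (1.93, adjusted p = 0.053). The Creb3l1 change from 33 h to expanded B cells rested on 32 and 9 counts at 33 h and ranged from 1.75 to 2.84 under the alternatives. Creb3 (1.51) also rose at the last transition, making 33.3% of the list against 14.0% of all tested genes. Between naive cells and plasmablasts Creb3l1 (3.99), Creb3 (1.20) and Srebf2 (0.74) rose, or 50.0% against 26.5% of all tested genes. Between 3 h and 10 h, and between 10 h and 33 h, 0 genes of the list were DE by glmTreat (30.5% and 14.4% of all tested genes). The call of Srebf2 against naive cells was lost without naive replicate 1 or either plasmablast replicate (adjusted p = 0.054 to 0.082), with library size alone (0.46, adjusted p = 0.91) and with no filter on low counts (0.089).

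**Figure D4:**
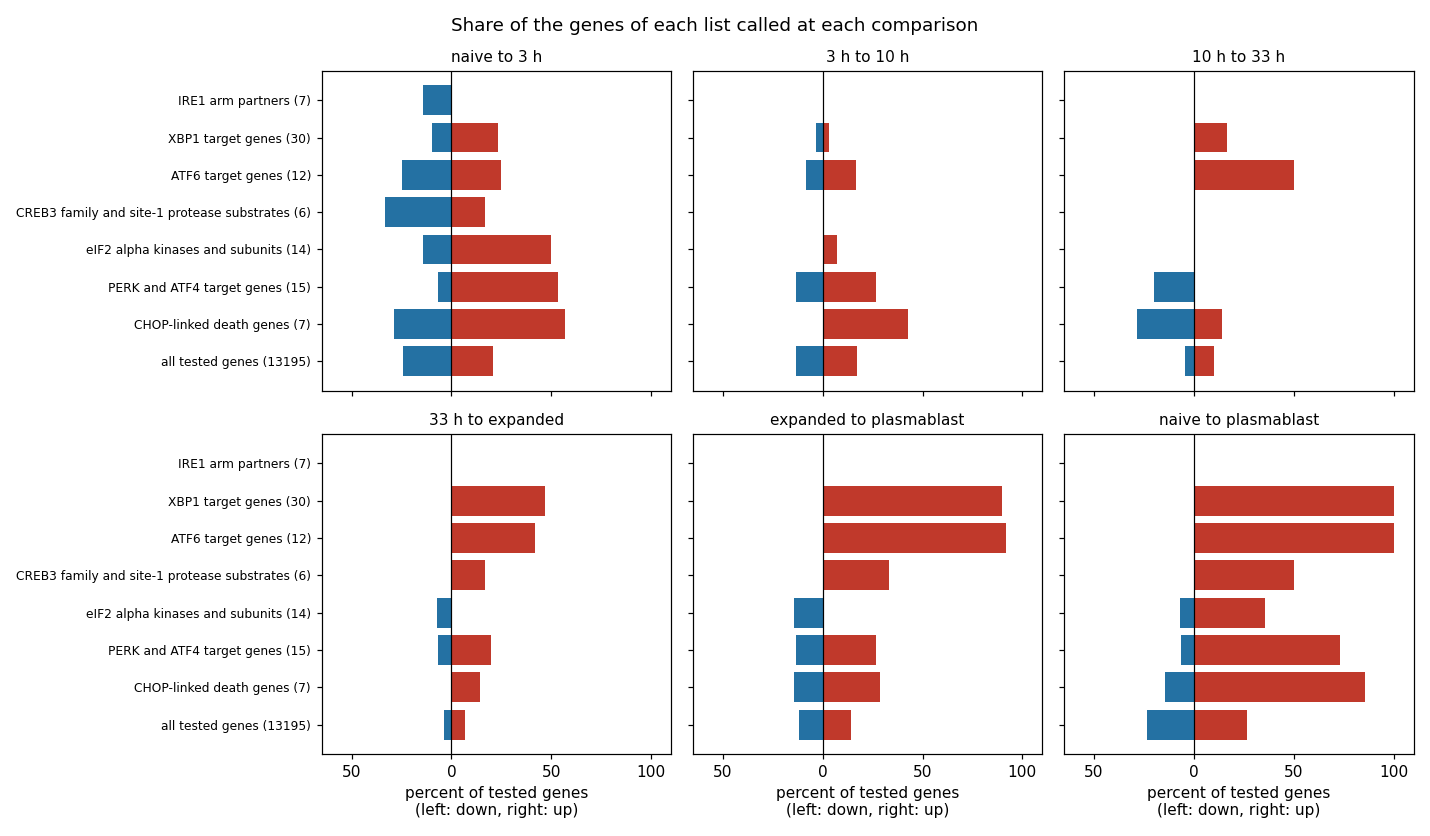
Percent of the tested genes in each list (number in brackets) called DE upwards (to the right) or downwards (to the left) at the 6 comparisons, with all 13195 tested genes in the lowest row. XBP1 and ATF6 targets reach 90.0% and 91.7% upwards from expanded B cells to plasmablasts, against 14.0% of all tested genes, while PERK and ATF4 targets have their largest share among consecutive stages, 53.3%, over the first 3 h.

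Targets of PERK and ATF4, which serve amino acid supply and the stress response, were followed next. Over the first 3 h 8 of 15 tested genes were DE upwards and 1 downwards, or 53.3% and 6.67%, against 20.9% and 24.2% of all tested genes, with a median of 1.27 against -0.03 over all tested genes. Atf4, whose product is made preferentially when eIF2 alpha is phosphorylated, was at 26.5 and 24.5 RPKM for naive cells, 204 and 228 at 3 h, then 137 and 166 at 10 h. It fell to 45.9 and 55.0 RPKM at 33 h and stood at 80.6 and 88.1 for expanded B cells, then 142 and 128 for plasmablasts. Atf4 was thus highest at 3 h, with plasmablasts and 10 h overlapping below it. Its rise over the first 3 h was 3.08 (SE 0.13, adjusted p = 1.2e-09) and its fall from 10 h to 33 h was -1.59 (SE 0.12, adjusted p = 5.8e-06).

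The targets Chac1 (5.60), Trib3 (4.07) and Asns (3.88) rose most over the first 3 h, and Ddit4 (-1.92) fell. For these genes the 3 h replicates differed widely, and over all tested genes the spread was also largest at 3 h, with a standard deviation of the log2 ratio of replicates of 0.528 against 0.305 to 0.387 at the other stages. Mitochondrial genes, removed before the fit, held 5.68% and 8.47% of the counts at 3 h and 10.3% and 11.6% in naive cells. The part of either in the changes over the first 3 h was not tested. Chac1 was at 0.972 and 11.7 RPKM at 3 h, against 0.147 and 0.121 for naive cells, and Trib3 at 1.01 and 12.8 RPKM, against 0.281 and 0.608 in naive cells. Asns was at 1.67 and 4.55 RPKM at 3 h. Replicate 2 was the higher in each case, as it was for Ddit3 and Xbp1, and both 3 h libraries lay above both naive libraries. Without 3 h replicate 2 the Chac1 change was 2.80 (adjusted p = 0.0022) and that of Asns 2.88 (adjusted p = 0.049). The Trib3 call was lost without naive replicate 1 (3.56, adjusted p = 0.058), and without 3 h replicate 2 the Trib3 change was 1.21 at an adjusted p of 0.050.

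By 10 h Asns (2.61), Psat1 (1.91) and Atf3 (1.74) rose most of 4 genes and Atf5 (-1.45) and Herpud1 (-1.27) fell, or 26.7% and 13.3% against 17.2% and 13.3% of all tested genes. The Asns change at this step ranged from 2.13 to 3.59 under the alternatives. From 10 h to 33 h 3 of 15 fell, namely Trib3 (-3.49), Cebpb (-1.76) and Atf4, and 0 rose by glmTreat, where 4.41% of all tested genes fell and 10.0% rose. The fall of Trib3 was not DE on leaving out any 1 of the 4 libraries (adjusted p = 0.085 to 0.17), although its level was 17.0 and 20.6 RPKM at 10 h and 1.61 and 1.75 RPKM at 33 h. In this interval Ddit3, Atf4 and Trib3 all fell while Xbp1 rose.

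Atf3 took another course. It was at 0.190 and 0.210 RPKM for naive cells, then 2.01 and 2.63 at 3 h, 9.19 and 6.47 at 10 h, and 12.9 and 12.5 at 33 h. It then fell to 3.34 and 3.10 RPKM for expanded B cells, then 0.501 and 0.574 for plasmablasts, with changes of -1.98 (SE 0.18, adjusted p = 3.1e-05) and -2.57 (SE 0.23, adjusted p = 5.4e-06). Atf3 was therefore highest at 33 h, where Ddit3 was lowest.

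From 33 h to expanded B cells Asns (2.07), Herpud1 (0.97) and Vldlr (2.99) were the 3 of 15 that rose, as did 6.87% of all tested genes. Vldlr rested on 1 and 4 counts at 33 h and 23 and 11 in expanded B cells. The call of Vldlr was lost without 33 h replicate 1 or either expanded replicate (adjusted p = 0.057 to 0.37) and with DESeq2 (0.090), that of Herpud1 on leaving out any 1 of the 4 libraries (0.053 to 0.21) or with library size alone (0.054), and that of Asns without 33 h replicate 1 (adjusted p = 0.060). From expanded B cells to plasmablasts Slc3a2 (2.72), Herpud1 (1.48) and Atf5 (1.47) rose. Ddit4 (-1.10) fell beside Atf3, or 13.3% of the list against 12.1% of all tested genes. The Ddit4 call was lost on leaving out any 1 of the 4 libraries, with DESeq2 size factors (adjusted p = 0.054) or with a block for replicate number (adjusted p = 0.051). Altogether 4 of 15 rose at this last transition, or 26.7% against 14.0% of all tested genes, with a median of 0.48 (0.15 with library size alone). Between naive cells and plasmablasts 11 of 15 rose, led by Asns (8.41), Chac1 (6.86) and Slc3a2 (3.46), and Ddit4 (-1.25) fell, or 73.3% and 6.67% against 26.5% and 23.3% of all tested genes. The call of Ddit4 was lost without naive replicate 1 (-0.90, adjusted p = 0.096) or plasmablast replicate 1 (-1.17, adjusted p = 0.056), or in a fit to those 4 libraries (0.091). Atf3 rose in that comparison by 1.43 (adjusted p = 0.011), a call lost without naive replicate 1 (adjusted p = 0.065) or plasmablast replicate 2 (0.058).

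**Figure D5:**
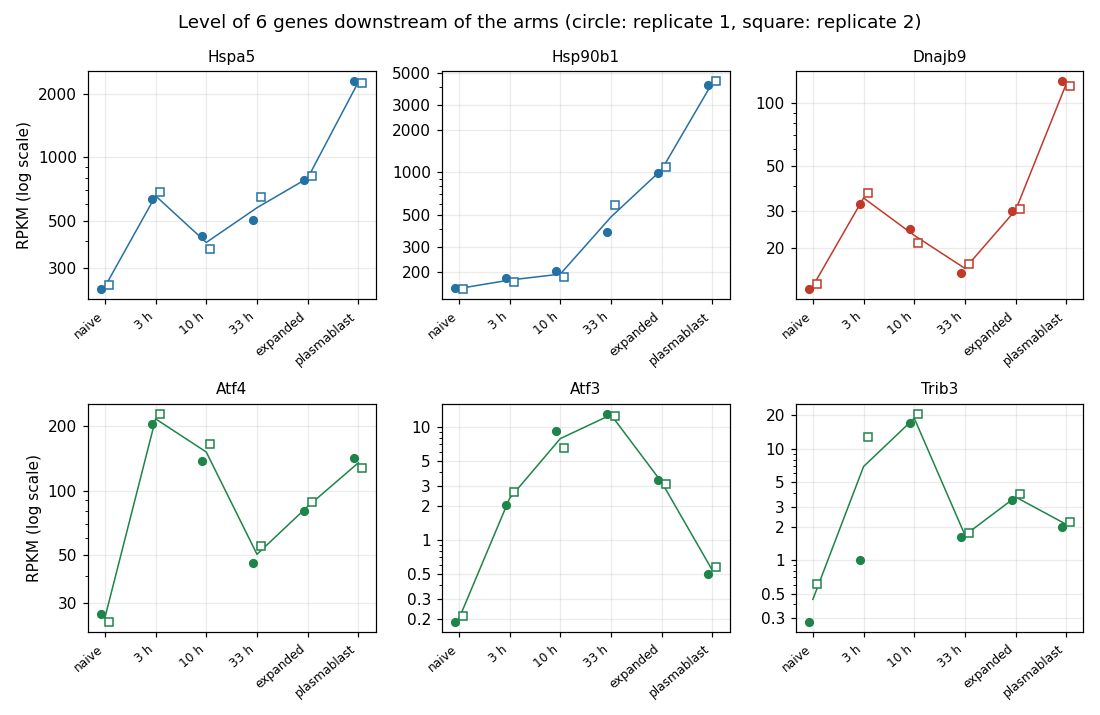
RPKM (vertical log axes, scaled to each gene) of Hspa5 and Hsp90b1 from the ATF6 targets, Dnajb9 from the XBP1 targets, and Atf4, Atf3 and Trib3 from the PERK and ATF4 targets, in every library at the 6 stages, with circles for replicate 1, squares for replicate 2 and lines through the means. Hspa5, Hsp90b1 and Dnajb9 are highest in plasmablasts, whereas Atf4 is highest at 3 h, Trib3 at 10 h and Atf3 at 33 h.

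The list of eIF2 alpha kinases and subunits held 14 genes. It also covers subunits of the exchange factor eIF2B (Eif2b genes) and of phosphatases (Ppp1 genes). Over the first 3 h, 7 of the 14 were DE upwards and 2 downwards, or 50.0% and 14.3%, against 20.9% and 24.2% of all tested genes. Eif2b3 (2.35), Eif2s1 (2.13), which encodes eIF2 alpha itself, and Eif2s2 (1.64) rose most. Eif2ak2 (-1.80), the gene for the kinase PKR, and the phosphatase gene Ppp1ca (-0.73) fell, the latter not DE without naive replicate 2 (-0.70). Eif2ak2 rose again from 3 h to 10 h (2.02), or 7.14% of the list against 17.2% of all tested genes. It fell from 33 h to expanded B cells (-1.13), or 7.14% against 3.56%, a call lost on leaving out any 1 of the 4 libraries (adjusted p = 0.051 to 0.18). From expanded B cells to plasmablasts Eif2b3 (-1.06) and Eif2ak4 (-0.79) fell and 0 of 14 rose by glmTreat, or 14.3% down against 12.1% of all tested genes (14.0% up). With library size alone 7 of the 14 were DE, while 1237 of 13195 tested genes rose and 3022 fell. The list median was then -0.67 instead of -0.34. With DESeq2 size factors 1 of the 14 was DE. The Eif2b3 call was lost without plasmablast replicate 2 (adjusted p = 0.076) and that of Eif2ak4 on leaving out any 1 of the 4 libraries (0.060 to 0.26), with DESeq2 size factors (0.065) or with another filter on low counts (0.053). Between naive cells and plasmablasts Eif2b3 (1.08), Eif2b4 (0.90) and Eif2b1 (0.85) were among 5 genes up, and Eif2ak4 (-1.47) fell, or 35.7% and 7.14% against 26.5% and 23.3% of all tested genes. With library size alone none of these 3 rises was DE (adjusted p = 0.090 to 0.42). Only 1 of the 14 genes was then DE in either direction, while 2837 of 13195 tested genes rose and 3958 fell. The call of Eif2b1 was also lost without naive replicate 2 (0.72).

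Genes linked to cell death downstream of CHOP did not follow the Ddit3 level throughout. Over the first 3 h 4 of 7 were DE upwards and 2 downwards, or 57.1% and 28.6%, against 20.9% and 24.2% of all tested genes. Bbc3 (3.29), which encodes PUMA, Ero1a (2.17) and Bcl2l11 (2.15), which encodes BIM, rose, and Bcl2 (-2.41), the gene for a survival factor, and Ero1b (-1.25) fell. By 10 h Tnfrsf10b (3.25), Bbc3 (1.38) and Bcl2 (1.35) rose, or 42.9% against 17.2% of all tested genes. From 10 h to 33 h, with the fall of Ddit3, Bbc3 (-1.66) and Bcl2l11 (-1.45) fell and Ero1b (1.02) rose, or 28.6% down and 14.3% up against 4.41% and 10.0% of all tested genes. Ero1b rose again to expanded B cells (1.22), or 14.3% against 6.87% of all tested genes, and to plasmablasts (1.68), where Bcl2l11 (2.21) rose and Bcl2 (-1.88) fell, or 28.6% and 14.3% against 14.0% and 12.1% of all tested genes.

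Between naive cells and plasmablasts 6 of the 7 rose, led by Tnfrsf10b (4.21), Bbc3 (2.89) and Bcl2l11 (2.64), and Bcl2 fell (-2.99), or 85.7% and 14.3% against 26.5% and 23.3% of all tested genes. Bcl2l11 stood at 90.0 and 81.6 RPKM in plasmablasts against 13.5 and 14.1 for naive cells, and Bcl2 at 2.32 and 2.47 RPKM against 20.7 and 17.4. Ddit3 was at 12.1 and 11.3 RPKM in the same plasmablast libraries and at 11.1 and 10.2 RPKM in naive cells.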

How the data were processed

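The authors used Rsubread 1.28.0 (mm10) and featureCounts, with CASAVA 1.8.2 named in the labels, and deposited unscaled counts of Entrez genes with exon lengths. The methods do not mention strand. Mitochondrial genes, ribosomal RNA genes, V, D and J segments of the immunoglobulin loci and unmatched identifiers were removed. X and Y genes, which the study removed, stayed in because Mbtps2 is X-linked. filterByExpr kept 13195 of 24979 genes. From the counts, edgeR 4.0.16 in R 4.3.3 gave TMM scaling, a robust quasi-likelihood fit over all 12 libraries, glmTreat tests and F-tests, and RPKM and CPM were computed. Standard errors derive from the F statistic. Steps were tested on simulated data. Alternatives were DESeq2 1.42.0, other scalings, filters, dispersions and gene removals, a replicate block, fits to 4 libraries and leaving libraries out. The removal of immunoglobulin segments first covered V segments alone. D and J segments were added once the number removed had been compared with the one in the series description. Removing V segments alone then became an alternative, added after seeing the data.

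The members and lists were chosen with earlier results of these data known. Named genes were all members at every comparison, up to 3 DE genes with the largest rise and 3 with the largest fall per list and comparison, Hspa5, Hsp90b1, Dnajb9, Atf4, Atf3 and Trib3, and the 3 genes nearest in course to each member spanning at least 4-fold. Summed values of the B cell and of the erythroid and platelet markers are not reported here.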

Additional observations from a re-analysis of the deposited data

How the results depend on the processing

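Of 1014 values of member changes under the alternatives, 930 kept their direction and their side of the threshold, whatever their size, 49 gained a call, 20 lost it and 15 reversed. Of 26 calls 7 were lost at least once. All reversals were of changes not called. With library size alone they were Atf6 (-0.053) and Atf6b (-0.05) over the first 3 h, Mbtps1 (0.139) and Mbtps2 (0.004) from 3 h to 10 h, Mbtps2 (-0.248) from expanded B cells to plasmablasts and Ddit3 (-0.137) from naive cells to plasmablasts. The list gene Hsp90b1 reversed likewise over the first 3 h (-0.016). Mbtps1 from 33 h to expanded B cells was 0.004 with at least 10 counts in every library and 0.007 in a fit to the 4 libraries. Leaving out libraries gave ranges of -0.008 to 0.289 for Atf6b over the first 3 h, -0.037 to 0.947 for Xbp1 from 3 h to 10 h, and -0.083 to 0.019 for Mbtps1 and -0.13 to 0.301 for Ppp1r15a from 33 h to expanded B cells. For Mbtps2 from expanded B cells to plasmablasts the range was -0.029 to 0.232.

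At the first 3 transitions the DESeq2 test called 4454, 3749 and 3157 of 13195 tested genes up and 4646, 4312 and 2601 down. The F-test called 4556, 4222 and 3053 up and 4778, 3964 and 2928 down. The number of members DE over the first 3 h, from 3 h to 10 h and from 10 h to 33 h was 3 in each case, against 7, 8 and 8 with DESeq2 and 8, 8 and 8 with the F-test, which have no 1.5-fold threshold. Without single libraries it ranged from 3 to 5, 1 to 3 and 2 to 4, and later from 3 to 5 and 5 to 6, with 6 throughout between naive cells and plasmablasts. From 3 h to 10 h, library size alone called 1 of the IRE1 partners, 4 of the XBP1 targets, 1 of the CREB3 list (also with DESeq2 size factors) and 2 of the eIF2 list. From expanded B cells to plasmablasts both scalings called 1 of the IRE1 partners, and the eIF2 list had 1 with DESeq2 size factors and 7 with library size alone. Between naive cells and plasmablasts library size alone called 2 IRE1 partners and 1 of the eIF2 list. With library size alone the changes of all tested genes shifted by a median of -0.209, 0.331, -0.0582, -0.00801, -0.332 and -0.272 in the order of the comparisons, and the list medians shifted by similar amounts.

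Of all 13195 tested genes, against which the list counts above are to be read, library size alone gave 2150 genes up and 3828 down over the first 3 h (2755 and 3188 with TMM), 3537 and 1027 from 3 h to 10 h (2269 and 1760), 1237 and 3022 from expanded B cells to plasmablasts (1843 and 1600), and 2837 and 3958 from naive cells to plasmablasts (3497 and 3068). DESeq2 size factors gave 2037 up and 2038 down from 3 h to 10 h, and 1924 and 1514 from expanded B cells to plasmablasts.

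With the replicate block the members DE were 3, 2, 3, 5, 6 and 6 in the order of the comparisons, as Ern1 from 3 h to 10 h had an adjusted p of 0.0517. Ddit4 from expanded B cells to plasmablasts lost its call as well (-1.095, adjusted p = 0.051). Deviations of libraries with the same number correlated between -0.136 and 0.0968. The labels do not say whether equal numbers share a mouse or culture, and these values do not settle it. Removing only V segments, the first form of that removal and an alternative chosen after seeing the data, changed 0 of 60 member calls. With 2 libraries a stage and 27 counts at the lowest, small changes in Creb3l2 at 3 h are beyond reach.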
